A study of Mus musculus with 2 samples.

Results

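Heme turnover, antioxidant and metallothionein genes were examined in regulatory T cells with and without Bach2. The set is a list of 40 genes of these functions, known targets of Bach proteins among them, and each was represented by all probes that the platform annotation pairs with its symbol. Of the 40 genes, 37 had a probe (58 probes in all), out of 16593 genes with a probe on the array. A probe was detected on an array when its detection p-value was under 0.01, and 30 of the 37 genes were detected on at least 1 array, out of 7611 such genes. Gsr, Prdx5 and Prdx6 had no probe in the annotation used and were not analysed here.

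The cells were CD4+ CD25+ GITR+ regulatory T cells, a lymphocyte subset that restrains immune responses, sorted by flow cytometry from mouse spleen. The Bach2 KO sample came from Bach2 KO mouse spleen with an age of 7 weeks, and the WT sample from WT C57BL/6 mouse spleen with an age of 6 weeks. Both samples are labelled male and of C57BL/6 background, and the labels give neither the kind of knockout allele nor the number of animals. RNA of each sample was hybridised to 1 Illumina bead array, on which oligonucleotide probes report transcript abundance as brightness, so each difference describes these 2 samples, without a replicate error or a p-value. The comparison describes which of these transcripts differed between the Bach2 KO and WT samples. Genotype and age differ together between them and cannot be told apart.

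Heme oxygenase and biliverdin reductases break heme down, ferritin stores the released iron, and the glutathione and thioredoxin systems remove peroxides. Many of these genes are switched on by NRF2 (Nfe2l2), which the adaptor KEAP1 holds in check, and are repressed by Bach proteins, which pair with small Maf proteins on elements related to the antioxidant response element. Heme binds Bach proteins and releases this repression. Metallothioneins bind zinc and copper and are induced through the metal-responsive factor MTF1.

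Some measurements on the same arrays bear on the samples as a whole. Xist, expressed from the inactive X chromosome of females, was at least 7.27-fold higher in Bach2 KO cells and was not detected in WT cells, and the Y-linked genes Kdm5d and Eif2s3y were 6.37-fold and 3.60-fold lower in Bach2 KO cells while detected on both arrays, although both samples are labelled male. Genotype, age and these sex-linked differences cannot be told apart as sources of the differences described here. No probe was paired with Bach2, so the deletion was not checked here. Over all 7611 genes detected on at least 1 array, 8.15% were at least 1.5-fold higher and 6.77% lower in Bach2 KO cells. Of 10 compared genes of T cells and regulatory T cells, none differed by 1.5-fold. They include the general T cell genes Cd3e, Cd3d, Cd3g and Cd5, and also Cd4, Il2ra and Tnfrsf18, which encode the sorted proteins CD4, CD25 and GITR. Foxp3, the lineage factor of regulatory T cells, had a log2 intensity of 13.02 in Bach2 KO cells and 13.13 in WT cells. Of 15 compared cell cycle genes, 14 were at least 1.5-fold higher in Bach2 KO cells (summed deposited intensity 31134 in Bach2 KO cells and 14042 in WT cells). All 5 compared mast cell and basophil markers and 4 of 6 compared macrophage and myeloid markers were at least 1.5-fold higher in Bach2 KO cells, with sums of 1173 and 5247 there against 373 and 2495 in WT cells. The 4 were Axl, Vcam1, Fcer1g and Tyrobp, and Axl alone had 3767 in Bach2 KO cells and 1527 in WT cells. Lyz2 and Adgre1 had log2 differences (Bach2 KO minus WT) of 0.04 and -0.14. Itgam, Cd14, Marco and Siglec1 were undetected on both arrays. NK and CD8 T cell markers (4 compared) included 3 that passed 1.5-fold upwards in Bach2 KO cells (sum 3679 in Bach2 KO cells and 1825 in WT cells), with Cd8a, Ncr1, Gzma and Gzmb undetected on both arrays, and of 4 compared B cell markers 2 were higher and 1 lower, with Ms4a1 and Pax5 undetected. The complement genes C1qa, C1qb and C1qc and the red pulp macrophage factor Spic were not detected on either array. Of 9 compared neutrophil markers, 7 were at least 1.5-fold lower in Bach2 KO cells (sum 1023 in Bach2 KO cells and 3492.5 in WT cells), and of 5 compared red cell markers 3 were (sum 279.9 in Bach2 KO cells and 697.6 in WT cells). The part of these markers in the differences described here was not tested, and in a mixed sample fewer cells of a type and less RNA per cell cannot be told apart.

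Most heme and antioxidant genes had like levels on the 2 arrays, and 6 differed by at least 1.5-fold. Mt1 (3.72-fold) and Srxn1 (2.11-fold) were higher in Bach2 KO cells. Osgin1 (2.02-fold), Gsto1 (1.93-fold), Txnip (1.72-fold) and Blvrb (1.56-fold) were lower in Bach2 KO cells. Hmox1, the classical target of Bach repression, was not detected on either array. Thus 2 of the 30 compared members (6.67%) passed 1.5-fold upwards, where 8.15% of all 7611 compared genes did, and 4 of the 30 (13.3%) passed it downwards, where 6.77% of all genes did. Where a gene had several detected probes the brightest of them stood for it, and every log2 difference given is Bach2 KO minus WT on the normalized scale. With the arrays scaled to the same median in place of quantile normalization, 3 members were higher and 3 lower, and 744 and 373 of all genes, where quantile normalization gave 620 and 515.

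The median log2 difference of the 30 members was 0.08, and that of all compared genes was -0.03, with genes detected on 1 array at their plain difference. With such genes at the lower bound described below, the medians were 0.06 and -0.02. Among members detected on both arrays, 18 of 28 (64.3%) had a positive difference, and among all genes 46.7%. The sizes were small in most members: 20 of the 28 (71.4%) differed by under 0.3 in log2 intensity, as did 62.9% of all 6994 genes detected on both arrays. The files give technical scatter only as the disagreement between probes of the same gene, whose pooled SD was 0.23 on the log2 scale over 1734 genes. The differences of 18 of the 28 members were smaller than this SD, which does not cover variation between animals.

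**Figure D1:**
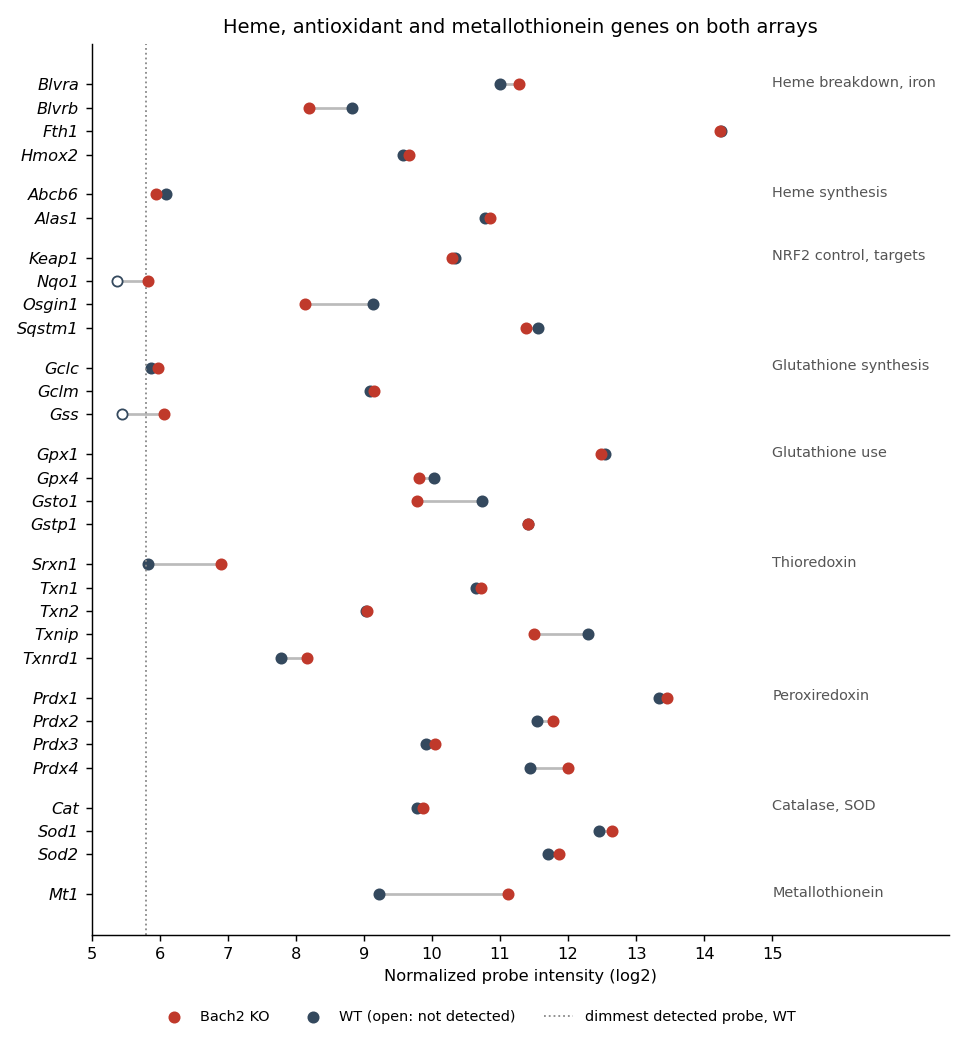
Normalized log2 intensity of the 30 compared members on the Bach2 KO array (red) and the WT array (dark blue; open where not detected), grouped by role, with the dimmest detected probe of the WT array as a dotted line. Levels can be compared within a gene only, since probes differ in response. Mt1 and Srxn1 lie further right in Bach2 KO cells, Osgin1, Gsto1, Txnip and Blvrb further left, and most other pairs nearly coincide.

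**Figure D2:**
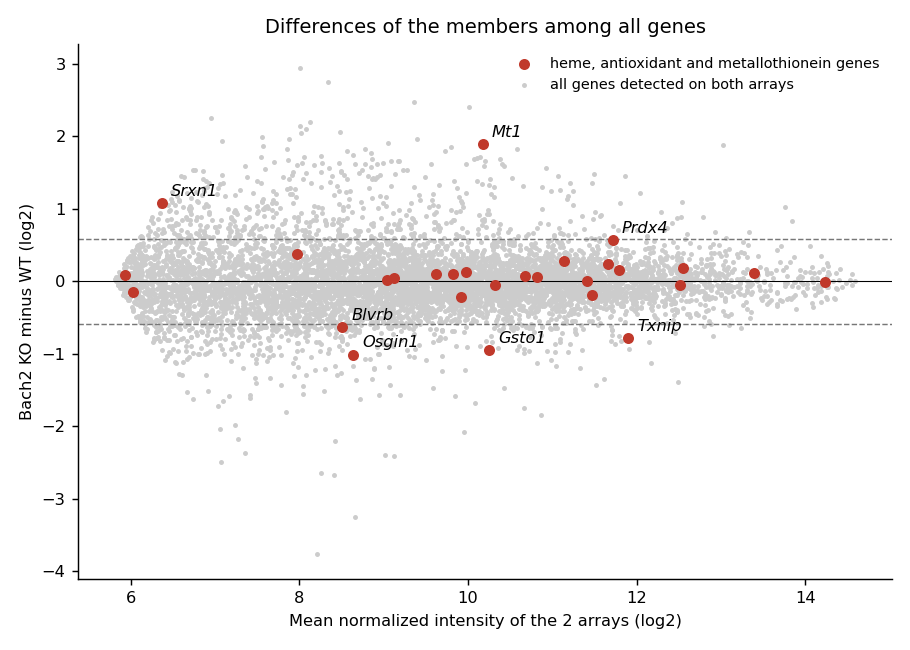
Log2 difference (Bach2 KO minus WT) against mean log2 intensity for the 6994 genes detected on both arrays (grey) and the 28 members among them (red), with dashed lines at 1.5-fold. Mt1 (1.90) lies above most genes of like brightness, close to cell cycle genes such as Top2a (1.72) and Plk1 (1.69). Most members lie near 0.

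The factors that control these genes are described first. Bach1, the other Bach repressor, had a log2 intensity of 8.45 in Bach2 KO cells and 8.54 in WT cells (difference -0.10). Nfe2l2, which encodes NRF2, had 6.89 in Bach2 KO cells and 7.02 in WT cells (difference -0.13). The small Maf partners Mafg and Mafk differed by -0.15 and -0.40. Keap1, the adaptor that sends NRF2 to degradation, had 10.29 in Bach2 KO cells and 10.34 in WT cells at its brightest probe, and its 4 probes differed by -0.05, -0.0004, -0.35 and -0.11. Its E3 ligase scaffold Cul3 differed by -0.27. Sqstm1, the autophagy receptor p62 that sequesters KEAP1, had 11.38 in Bach2 KO cells and 11.56 in WT cells (difference -0.18). Of the 10 compared regulators outside the member list, none passed 1.5-fold in either direction, with a median of -0.17. Mtf1 among them was detected in WT cells only and was counted by a lower bound of its fold, described below. Its plain log2 difference of -0.88 was past 1.5-fold. The list is too short to set the count of regulators past 1.5-fold apart from the shares of all compared genes, 8.15% higher and 6.77% lower.

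Of Osgin1, Nqo1 and Me1, grouped here as NRF2 targets, only Osgin1 passed 1.5-fold, and it was lower in Bach2 KO cells. Members described under other roles can be NRF2 targets too. Osgin1, an oxidative stress-induced growth inhibitor, had a deposited intensity of 268.5 in Bach2 KO cells and 545 in WT cells. Its log2 intensity was 8.13 in Bach2 KO cells and 9.14 in WT cells, a difference of -1.01 that ranked 93 from the lowest among the 6994 genes detected on both arrays. Nqo1, a quinone reductase, was detected in Bach2 KO cells only, with an intensity of 40.6 (detection p-value 0.00752) there and 25.6 (0.0489) in WT cells. For such a gene only a lower bound of the fold is given, its level on the detecting array over its own level or the other array's dimmest detected level (log2 5.81 on the Bach2 KO array and 5.80 on the WT array), whichever is higher. By this bound Nqo1 was at least 1.02-fold higher in Bach2 KO cells. Me1, the cytosolic malic enzyme that supplies NADPH, was not detected at either of its probes, which had -6.19 and -4.14 in Bach2 KO cells and -0.445 and -9.64 in WT cells.

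Of 4 compared genes of heme breakdown and iron storage, Blvrb was lower in Bach2 KO cells and the others stayed within 1.5-fold. Hmox1, which encodes the inducible heme oxygenase, had an intensity of 9.34 in Bach2 KO cells (detection p-value 0.185) and 23.7 in WT cells (0.0602), both below detection, so no fold is given. Its constitutive paralogue Hmox2 was detected with a log2 intensity of 9.67 in Bach2 KO cells and 9.57 in WT cells (difference 0.10). The biliverdin reductases differed in opposite directions: Blvra, which converts biliverdin to bilirubin, had 11.28 in Bach2 KO cells and 11.01 in WT cells (difference 0.28). Blvrb, a flavin reductase that is abundant in red cells, had an intensity of 280.3 in Bach2 KO cells and 433 in WT cells, or 8.19 in Bach2 KO cells and 8.82 in WT cells on the log2 scale (difference -0.64). The red cell globins were lower on the same array, with Hba-a1 at 6.80 in Bach2 KO cells and 8.14 in WT cells and Hbb-bt at 6.73 in Bach2 KO cells and 7.92 in WT cells, while Alas2, the red cell form of the first heme enzyme, was not detected on either array. Their part in the Blvrb value was not tested. The call for Blvrb did not hold with median scaling (-0.56), with an offset of 50 (-0.58) or on the series matrix values (-0.51). Fth1, the ferritin heavy chain, was near the top of the intensity range with 14.23 in Bach2 KO cells and 14.24 in WT cells, and its probes differed by -0.01 and 0.13. The 1 probe of Ftl1, the ferritin light chain, was not detected on either array, with an intensity of 13.9 in Bach2 KO cells (detection p-value 0.113) and 3.69 in WT cells (0.288).

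Heme synthesis genes showed small differences among the members. Alas1, the first enzyme of the pathway outside red cells, had a log2 intensity of 10.85 in Bach2 KO cells and 10.79 in WT cells (difference 0.06). Abcb6, a porphyrin transporter, lay close to the detection limit with 5.95 in Bach2 KO cells and 6.09 in WT cells (difference -0.15). Fech, which inserts iron into protoporphyrin, was not detected at any of its 3 probes, the brightest of which had an intensity of 28.1 in Bach2 KO cells and 30.7 in WT cells. Of 9 other compared genes of heme synthesis and transport, Alad, the second enzyme, was 1.51-fold higher in Bach2 KO cells (11.75 in Bach2 KO cells and 11.16 in WT cells). Ppox, the enzyme before ferrochelatase, was 1.53-fold lower in Bach2 KO cells (8.80 in Bach2 KO cells and 9.41 in WT cells). The other Ppox probe, below detection on both arrays, went the opposite way (0.36). Neither call held throughout: Alad was at 0.58 on the series matrix values, just short of 1.5-fold, and Ppox did not pass with median scaling (-0.54), cyclic loess (-0.58), an offset of 50 (-0.58) or the series matrix values (-0.52). Urod differed by 0.01 and Uros by -0.07. Of 11 compared iron genes none passed 1.5-fold, where 8.15% of all compared genes did upwards and 6.77% downwards. The transferrin receptor Tfrc differed by 0.24, the iron exporter Slc40a1 by 0.26 and Ireb2, an iron-sensing regulator of mRNAs, by 0.54.

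In glutathione synthesis, the ligase subunits that limit the rate were at like levels. Gclm, the modifier subunit, had an intensity of 554 in Bach2 KO cells and 528 in WT cells (log2 difference 0.05). Gclc, the catalytic subunit, was barely detected, with 47.0 in Bach2 KO cells and 43.4 in WT cells (difference 0.09). Gss, glutathione synthetase, was detected in Bach2 KO cells only, at 1 of its 3 probes. That probe had 51.2 in Bach2 KO cells (detection p-value 0.00376) and 28.1 in WT cells (0.0388), which gives a bound of at least 1.21-fold higher. Its other probes were below detection on both arrays, with 22.1 and 18.4 in Bach2 KO cells and 8.69 and -3.88 in WT cells. Slc7a11, the cystine importer and an NRF2 target in other cells, was not detected on either array, with 5.44 in Bach2 KO cells and -13.3 in WT cells.

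Among enzymes that use glutathione, Gsto1 was the member that stood out. Gsto1, an omega-class transferase that reduces dehydroascorbate, had an intensity of 879 in Bach2 KO cells and 1648 in WT cells. Its log2 intensity was 9.78 in Bach2 KO cells and 10.73 in WT cells, and the difference of -0.95 ranked 122 from the lowest among the 6994 genes. Gpx1, the abundant cytosolic glutathione peroxidase, had 12.49 in Bach2 KO cells and 12.54 in WT cells (difference -0.05). Gpx4, which reduces lipid peroxides, had an intensity of 896 in Bach2 KO cells and 1005 in WT cells at its detected probe (log2 difference -0.22). Gstp1, the pi-class transferase, had 3 detected probes, with 2756, 1464 and 96.8 in Bach2 KO cells and 2662, 1579 and 86.8 in WT cells, and their log2 differences were 0.01, -0.15 and 0.12. Gstm1, a mu-class transferase, was not detected at either of its probes, which had 27.8 and 19.9 in Bach2 KO cells and 17.0 and -4.58 in WT cells.

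A wider glutathione list held genes that differed in both directions, with 7 positive and 11 negative differences among those detected on both arrays. Of its 19 compared genes none was 1.5-fold higher in Bach2 KO cells, where 8.15% of all compared genes were, and 4 (21.1%) were at least 1.5-fold lower, where 6.77% of all genes were. Gsta4, which conjugates the lipid peroxidation product hydroxynonenal, was detected in WT cells only, with a log2 intensity of 5.64 in Bach2 KO cells and 7.69 in WT cells, and was at least 3.68-fold lower in Bach2 KO cells. The size of this bound moved with the processing, from -1.88 in log2 as given to -1.42 with an offset of 50 and -1.01 on the series matrix values. Gstk1, the kappa-class transferase, had 7.06 in Bach2 KO cells and 8.50 in WT cells, 2.70-fold lower in Bach2 KO cells. Mgst3, a microsomal transferase, had 6.96 in Bach2 KO cells and 7.63 in WT cells (1.59-fold lower in Bach2 KO cells), and Gpx7, a peroxidase of the endoplasmic reticulum, had 5.98 in Bach2 KO cells and 6.67 in WT cells (1.61-fold lower in Bach2 KO cells). Other transferases went the opposite way or differed little, with Gstm5 at 0.52, Gstt3 at 0.40 and Gstt2 at -0.15. Mgst2 was also lower in Bach2 KO cells (-0.46), short of 1.5-fold. The list's median was -0.15, where all genes had -0.03. Mgst3 and Gpx7 did not pass 1.5-fold with an offset of 50 (-0.55 and -0.48) or on the series matrix values (-0.42 and -0.32).

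The thioredoxin system held a gene past 1.5-fold in each direction. Srxn1, sulfiredoxin, which restores overoxidised peroxiredoxins, had an intensity of 105.0 in Bach2 KO cells and 41.4 in WT cells at its brightest probe. Its log2 intensity was 6.90 in Bach2 KO cells and 5.83 in WT cells, the second just above the dimmest detected probe of that array (5.80). The difference of 1.08 ranked 185 from the highest among 6994 genes. The other 2 Srxn1 probes were below detection on both arrays, with 26.7 and -4.55 in Bach2 KO cells and 10.6 and -6.28 in WT cells. Because the probe is dim, the size of the Srxn1 difference moved with the offset, from 1.33 with an offset of 1 to 0.76 with an offset of 50, and on the series matrix values (0.51) it did not pass 1.5-fold.

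Txnip, the thioredoxin-binding arrestin that also limits glucose uptake, was bright on both arrays, with 2937 in Bach2 KO cells and 4877 in WT cells. Its log2 difference of -0.78 ranked 203 from the lowest among the 6994 genes. Txnrd1, cytosolic thioredoxin reductase, had 277 in Bach2 KO cells and 202 in WT cells (log2 difference 0.38), short of 1.5-fold. The thioredoxins were at like levels. Txn1 had 1696 in Bach2 KO cells and 1559 in WT cells at its detected probe (0.07), and the mitochondrial Txn2 had 519 in Bach2 KO cells and 503 in WT cells (0.02). Of 20 other compared genes of thioredoxins, superoxide handling and selenoproteins, Sesn1, a sestrin induced by p53 and Foxo factors, was 1.77-fold lower in Bach2 KO cells (11.40 in Bach2 KO cells and 12.22 in WT cells). The remaining 19 did not pass 1.5-fold, with Txnrd2 at 0.12 and Park7, a redox-sensitive chaperone, at -0.03.

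The promoters of Srxn1 and Osgin1 are shown because these genes passed 1.5-fold in opposite directions and both hold the AP-1 type element TGAGTCA, which lies inside the long elements that Bach and small Maf proteins bind. Each line gives the 250 bases before the RefSeq start on the gene's strand, 5′ to 3′, in build GRCm38.p6, at chr2:152105274-152105523 (plus strand) for Srxn1 and chr8:119436897-119437146 (plus strand) for Osgin1. Capitals mark TGAGTCA, the antioxidant response element core TGACNNNGC or the metal response element cores TGCACNC and TGCGCNC, each on either strand.
Srxn1: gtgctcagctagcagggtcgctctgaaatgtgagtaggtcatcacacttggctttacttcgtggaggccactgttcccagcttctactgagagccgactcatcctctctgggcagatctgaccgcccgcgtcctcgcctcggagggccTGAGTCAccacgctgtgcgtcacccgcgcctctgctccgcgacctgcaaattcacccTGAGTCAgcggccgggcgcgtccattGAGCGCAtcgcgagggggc
Osgin1: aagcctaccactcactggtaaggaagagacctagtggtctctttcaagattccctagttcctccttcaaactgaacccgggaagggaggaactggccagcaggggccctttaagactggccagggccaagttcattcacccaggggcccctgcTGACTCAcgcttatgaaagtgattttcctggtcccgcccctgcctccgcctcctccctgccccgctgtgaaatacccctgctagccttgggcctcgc

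TGAGTCA lay at -102 and -45 from the start in Srxn1 and at -97 in Osgin1, where -1 is the base before the start and positions give the leftmost base. Of the 40 members, 35 had a promoter in the RefSeq table, and 5 of them held TGAGTCA: Gstp1, Mt2, Osgin1, Prdx1 and Srxn1. In all, 5.16% of the 27025 genes with a RefSeq promoter held it. The core TGACNNNGC was found in 6 of the 35 (Blvra, Gclm, Mt2, Prdx1, Sod1 and Txnrd1) and in 11.5% of all genes. It overlapped TGAGTCA in Mt2 and Prdx1. Of these carriers, Osgin1 and Srxn1 passed 1.5-fold, Mt2 was not detected, and the others differed by at most 0.38. Neither element was found in the 250 bases before the RefSeq starts of Txnip, Gsto1, Blvrb or Mt1, and bases after those starts were not searched. These matches describe letters in a short window, and distal elements were not searched.

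The peroxiredoxins, which reduce peroxides through reactive cysteines, all had positive differences at their brightest probe. Median scaling and cyclic loess could not test this direction. Both moved differences upwards, with the median of all genes detected on both arrays going from -0.03 to 0.05 and 0.006. Prdx4, the form of the endoplasmic reticulum, is encoded on the X chromosome. It had an intensity of 4118 in Bach2 KO cells and 2698 in WT cells. Its 1.48-fold difference (log2 0.57) was the largest of the 4 and just short of 1.5-fold, and with median scaling it passed (0.64). Prdx1 had 11404 in Bach2 KO cells and 10039 in WT cells (0.11), and the mitochondrial Prdx3 had 1063 in Bach2 KO cells and 931 in WT cells (0.13). Both differences were within the scatter between probes. Prdx2, a cytosolic form that is also abundant in red cells, gave unlike values by probe. Its brightest probe had 3573 in Bach2 KO cells and 2912 in WT cells (0.24), the next 317 in Bach2 KO cells and 359 in WT cells (-0.22), and the dimmest 82.7 in Bach2 KO cells and 166.2 in WT cells (-0.90). The direction for Prdx2 thus depended on the probe, and the mean of its probes was -0.29.

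**Figure D3:**
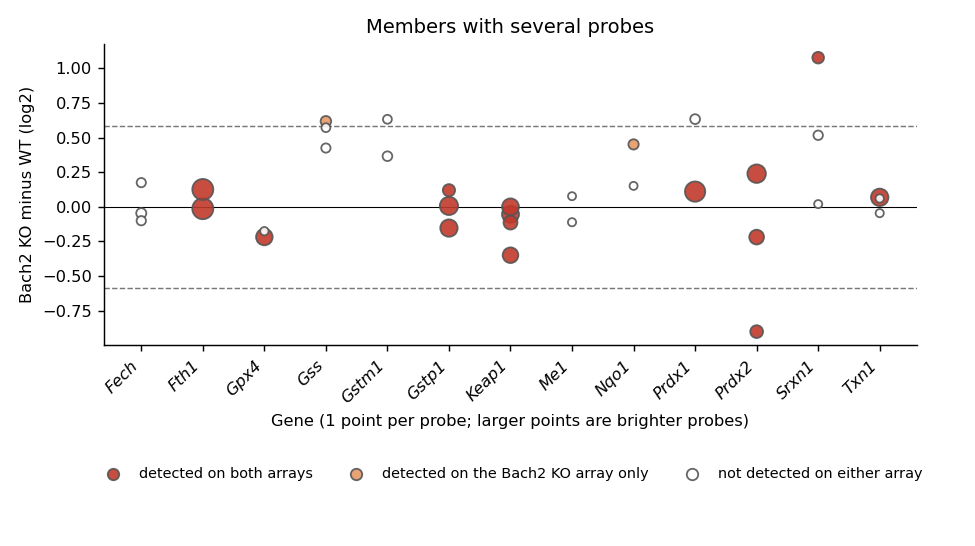
Log2 difference (Bach2 KO minus WT) of each probe for the members with several probes, with dashed lines at 1.5-fold. Point size follows brightness and colour follows detection. The 3 Prdx2 probes spread from -0.90 to 0.24, whereas the 4 Keap1 and 3 Gstp1 probes stay within 1.5-fold.

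Catalase and the superoxide dismutases were bright and little different. Cat, which splits hydrogen peroxide in peroxisomes, had 933 in Bach2 KO cells and 846 in WT cells (log2 difference 0.09). Sod1, the cytosolic copper and zinc enzyme, had 6566 in Bach2 KO cells and 5450 in WT cells (0.19), and the mitochondrial Sod2 had 3767 in Bach2 KO cells and 3261 in WT cells (0.15). All 3 differences were within the scatter between probes. Genes that supply NADPH (6 compared) and subunits of the NADPH oxidase (3 compared) also stayed within 1.5-fold, with Tkt at 0.17, Idh1 at -0.23 and Rac2 at 0.21. These lists are too short to set apart from all compared genes, of which 8.15% were higher and 6.77% lower. Cybb, the catalytic oxidase subunit of phagocytes, was not detected on either array.

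The metallothioneins gave the largest difference of the whole set. Mt1 had an intensity of 2245 in Bach2 KO cells and 577 in WT cells, with a log2 intensity of 11.12 in Bach2 KO cells and 9.23 in WT cells. The difference of 1.90 ranked 16 from the highest among the 6994 genes detected on both arrays. It lay between 1.75 and 1.97 under all the ways of processing tried. The changes of detection rule and the mean of probes could not alter it, since its 1 probe was detected on both arrays. Mt1 had 1 probe, so no other probe of the gene could be set beside it. Mt2, its neighbour on the chromosome, was not detected at its 1 probe, with 19.8 in Bach2 KO cells (detection p-value 0.0576) and 24.97 in WT cells (0.0539). Mt3 and Mt4 were not detected on either array. Mtf1, the zinc-sensing activator of metallothioneins, was detected in WT cells only and was at least 1.43-fold lower in Bach2 KO cells. The plain log2 differences of its 2 probes were -0.88 and -0.43. Slc30a1, a zinc exporter that MTF1 also induces, had 8.11 in Bach2 KO cells and 8.25 in WT cells (difference -0.14). Of 10 compared genes of zinc transport, 1 passed 1.5-fold: Slc30a4, a zinc exporter of vesicles, was 1.59-fold lower in Bach2 KO cells (5.86 in Bach2 KO cells and 6.53 in WT cells), near the detection limit. It did not pass with an offset of 50 (-0.45) or on the series matrix values (-0.29).

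The promoters of the neighbours Mt1 and Mt2 are shown because their probes gave unlike results and both are known targets of MTF1. They are the 250 bases before each RefSeq start, 5′ to 3′ on the plus strand of GRCm38.p6, at chr8:94178839-94179088 for Mt1 and chr8:94172368-94172617 for Mt2. Capitals mark the same elements as before.
Mt1: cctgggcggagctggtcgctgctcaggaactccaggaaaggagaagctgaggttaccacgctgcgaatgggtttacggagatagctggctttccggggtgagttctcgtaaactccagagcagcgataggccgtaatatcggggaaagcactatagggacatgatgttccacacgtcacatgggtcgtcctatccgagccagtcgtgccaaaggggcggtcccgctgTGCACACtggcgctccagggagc
Mt2: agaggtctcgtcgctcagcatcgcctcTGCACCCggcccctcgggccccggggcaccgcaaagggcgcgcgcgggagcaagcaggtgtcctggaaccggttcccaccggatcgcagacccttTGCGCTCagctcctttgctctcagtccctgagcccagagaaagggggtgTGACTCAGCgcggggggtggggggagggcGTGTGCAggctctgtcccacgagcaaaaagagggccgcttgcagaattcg

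A metal response element core lay at -23 in Mt1 and at -223, -128 and -50 in Mt2, and the 50 bases after each start were not searched. Mt2 also held TGACTCAGC at -79, in which TGAGTCA on the opposite strand overlaps TGACNNNGC. Metal response element cores were found in 9 of the 35 members with a promoter, namely Abcb6, Alas1, Gclm, Gstm1, Mt1, Mt2, Prdx4, Srxn1 and Txnip, and in 23.8% of all genes in the table.

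The wider pathway lists, like the members chosen with earlier results of these data known, hold 133 further genes, of which 88 were compared. Of these, 1 (1.14%) was at least 1.5-fold higher in Bach2 KO cells (Alad), where 8.15% of all compared genes were. At least 1.5-fold lower were 7 (7.95%: Ppox, Gpx7, Gsta4, Gstk1, Mgst3, Sesn1 and Slc30a4), where 6.77% of all compared genes were, a share near that background. Their median difference was 0.0044. Under the other ways of processing the higher count ran from 0 to 5 and the lower count from 3 to 9. Gstk1, Gsta4 and Sesn1 were past 1.5-fold under every way of processing that compared them.

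**Figure D4:**
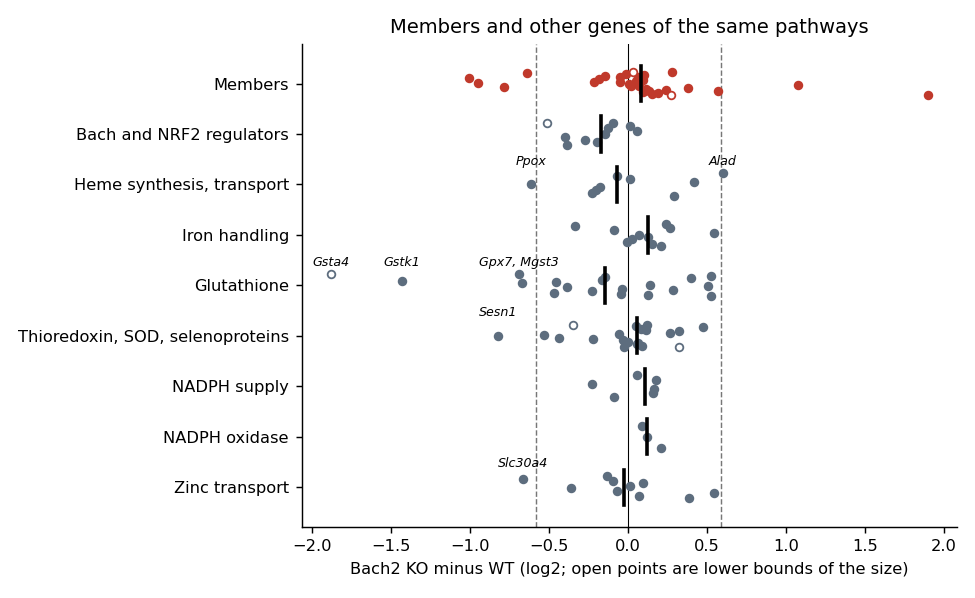
Log2 difference (Bach2 KO minus WT) of the members (red) and of other genes of the same pathways (grey), 1 point per gene. Open points are bounds for genes detected on 1 array, black bars are medians and dashed lines mark 1.5-fold. The medians lie between -0.17 and 0.12, and the labelled genes are those past 1.5-fold outside the member list.

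**Figure D5:**
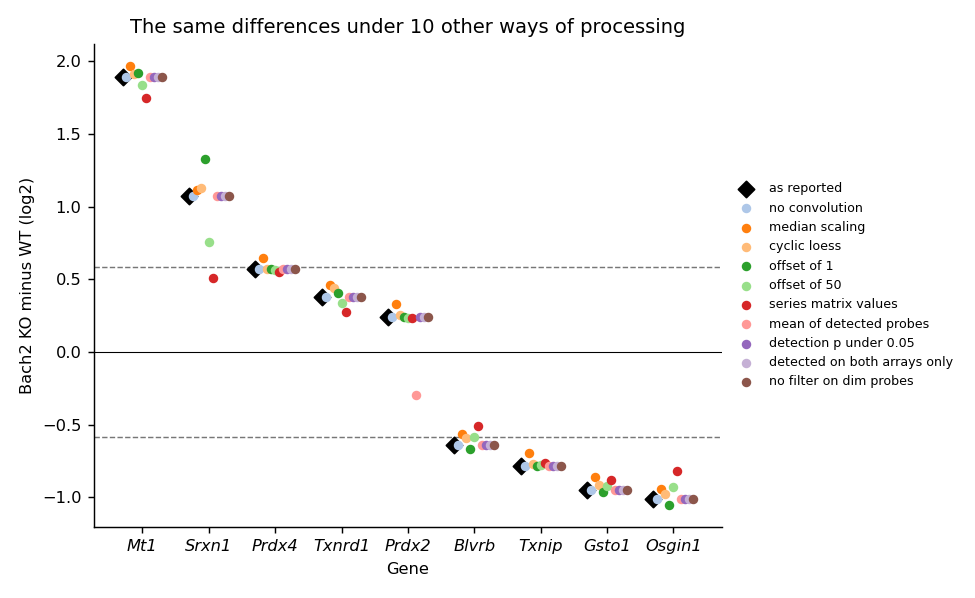
Log2 difference (Bach2 KO minus WT) of 9 members as reported (black diamonds) and under each of 10 other ways of processing (coloured points), with dashed lines at 1.5-fold. Mt1, Txnip, Gsto1 and Osgin1 stay past 1.5-fold throughout, Srxn1 and Blvrb fall inside it under some, and Prdx2 changes sign with the mean of its probes.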

How the data were processed

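Of the 2 deposited tables, the first holds background-subtracted intensity (29.5% of Bach2 KO and 30.4% of WT values lay below 0), with a detection p-value beside it, for 25697 probes, and is marked non-normalized per the file headers. The second, the deposited series matrix, is a linear rescaling of the same intensity on each array, so it adds no independent measurement. The sources used here do not give the scanner software or the background method.

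The deposited intensities were passed through limma 3.58.1 (R 4.3.3) in the neqc manner: normexp background correction using the detection p-values, addition of 16, quantile normalization and log2. This hides a general shift of all genes. The offset pulls differences of dim probes towards 0. GEO's platform annotation named 23978 probes. The brightest detected probe stood for its gene. With 1 array per group no test was possible, the number of arrays limits the precision, and genes were counted at 1.5-fold. All members are named, and of the other pathway genes those past 1.5-fold, with others as examples chosen after their values were seen. The code was tested on simulated data. The members, roles and lists were chosen with earlier results of these data known. Promoters came from RefSeq (GRCm38.p6).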

Additional observations from a re-analysis of the deposited data

How the results depend on the processing

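Each result was recomputed under 10 alternatives: no convolution, median scaling, cyclic loess, offsets of 1 and 50, the series matrix values, the mean of detected probes, a detection threshold of 0.05, genes detected on both arrays only, and no filter on dim probes. The median of the members stayed between 0.06 and 0.15. The number of members at least 1.5-fold higher was 2 or 3, except that it was 1 on the series matrix values, where a constant left in the values shrinks differences of dim probes, and the number lower was 3 or 4. No named gene past 1.5-fold changed direction. Among the recomputed differences of named genes, 15 moved by more than the SD between probes of a gene (0.23) and 382 by less. Many of the 382 were fixed in advance. The changes of detection rule cannot alter a gene whose brightest probe was detected on both arrays. Nor can the mean of probes alter a gene with 1 detected probe. Fth1, Keap1, Gpx1, Gstp1 and Prdx2 took both signs, within -0.10 to 0.06, -0.13 to 0.03, -0.05 to 0.07, -0.01 to 0.09 and -0.29 to 0.33. Over all genes, the series matrix values gave 371 higher and 223 lower and the offset of 50 gave 343 lower, where 620 and 515 were counted as reported. No paired analysis was possible because each group has 1 array, and for the same reason neither array could be left out. Signal over background limits 7 members with a probe, Hmox1 among them, to the statement that they were not detected.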
